A study of Mus musculus with 400 samples.

Results

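The Mas-related G protein-coupled receptors are a family of receptors found mainly on small-diameter sensory neurons. The members described here are Mrgprd, Mrgpra3, Mrgprb4, Mrgprb5, Mrgprx1, Mrgpre and Mrgprf, chosen by name, 7 of the 24754 gene rows with a symbol and without the ribosomal RNA gene Rn45s. They were read in single sorted cells from dorsal root ganglia, and all 7 were found in the tables.

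The cells came from 6 naive mice, 6 to 12 weeks old, of the strain Nav1.8-Cre.Ai14 (genotype Nav1.8-Cre R26CAG-floxStop-tdTomato), and no mouse was treated. In these mice a Cre recombinase under the control of the Nav1.8 sodium channel gene (Scn10a) switches on the red fluorescent protein tdTomato, so a cell is marked if it or a precursor has ever made the Cre. Cervical ganglia were dissociated and tdTomato-positive cells were sorted one by one, each giving its own library. The mice are called Blue and Red (sequenced in run 1), Control (run 2), Control1 and Control2 (run 3) and Control6 (run 4). Analysis used the 371 of 394 cells in which 500 or more genes were seen, and each mouse was 1 replicate.

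Kept cells were placed in classes by transcript level, in CPM (a gene's counts scaled by the cell's total without Rn45s). A total of 46 cells had Sst or Nppb at 100 CPM or more, genes of itch neurons that make somatostatin and natriuretic polypeptide B. A further 34 cells passed Th (tyrosine hydroxylase, a marker of low-threshold C-fibre mechanoreceptors) at 100 CPM, and 81 passed Calca at 2000 with Tac1 at 1000 CPM, the genes of the peptides CGRP and substance P. Nefh, the heavy neurofilament of large neurons, passed 500 CPM in 20 cells, 16 of them from Control. Another 8 cells passed more than 1 gate and entered no class, and 182 cells (49.1%) passed none and are called ungated. All comparisons are between classes within these mice.

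Members of this family respond to small molecules and peptides, several of which cause itch. Several members can signal through Gq and phospholipase C, which can open channels at the membrane of the nerve ending. Mrgprd is the receptor for beta-alanine and marks non-peptidergic nociceptors of the skin. Mrgpra3 is the mouse receptor for the antimalarial drug chloroquine and marks a small population of itch neurons, and Mrgprx1 (long called MrgprC11) is activated by a peptide of the bovine adrenal medulla. Mrgprb4 marks C-fibres that respond to stroking of hairy skin. Mrgpre and Mrgprf are orphan receptors.

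Cells held a median of 30366 counts (918 to 324984). Median counts were 16933 in Sst/Nppb cells, 30984 in Th cells, 19620 in Calca/Tac1 cells, 91668 in Nefh cells and 40217 in ungated cells, so a transcript at 1 count is more easily seen in some classes than in others. A summed list of 6 sensory neuron markers averaged 8200 to 8623 CPM in every class and was above 0 in every cell. A list of 6 satellite glia markers averaged 323 CPM in Sst/Nppb cells, 669 in Th, 1104 in Calca/Tac1, 3927 in Nefh and 495 in ungated cells (medians 0, 0, 36.4, 2982 and 0). The mast cell list, of interest because Mrgprb2 is a mast cell receptor, averaged at most 1.48 CPM in any class, with Tpsb2, Mcpt4 and Fcer1a at 0 in all of them. Intervals given with a share of cells are 95% binomial intervals (exact, Clopper-Pearson), which hold for counting error alone. Where a share is 0, the limit given is instead 3 cells of the total, which is somewhat below the upper end of the exact interval.

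All 7 genes lie on mouse chromosome 7 (GRCm38, the build mm10, GENCODE vM21). Mrgpra3 (ENSMUSG00000078698, chr7:47588950-47601372), Mrgprx1 (ENSMUSG00000070552, chr7:48020971-48027597), Mrgprb5 (ENSMUSG00000070551, chr7:48167983-48169019) and Mrgprb4 (ENSMUSG00000070550, chr7:48198070-48199288) stand on the minus strand within 610.3 kb. Mrgpre (ENSMUSG00000048965, chr7:143778363-143784500, minus strand) lies 95.6 Mb further along. Mrgprf (ENSMUSG00000031070, chr7:145300828-145309557) and Mrgprd (ENSMUSG00000051207, chr7:145314835-145324086) are neighbours on the plus strand, with 5277 bases between them. Coding sequences ran from 930 bases in Mrgpre to 1029 in Mrgprf, and Mrgprb4 and Mrgprb5 had a single exon. These last 2 were the closest pair, with 84.3% of aligned coding bases the same, against 49.6% to 63.2% for the other pairs.

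Mrgprb4 and Mrgprb5 were alike in their promoter windows as well, and both windows are shown as the closest pair among the members. In the RefSeq promoter table (GRCm38.p6), which holds 5 of the 7 members, the 250 bases before the start were the same at 206 positions (82.4%) with 0 gaps, while the other pairs shared 43.98% to 46.4% after alignment. Capitals mark the letters that differ. The windows are chr7:48199179-48199428 for Mrgprb4 and chr7:48168986-48169235 for Mrgprb5, both minus strand. The GENCODE genes given above end at 48199288 and 48169019, so by that annotation part of each window lies inside the gene.
Mrgprb4: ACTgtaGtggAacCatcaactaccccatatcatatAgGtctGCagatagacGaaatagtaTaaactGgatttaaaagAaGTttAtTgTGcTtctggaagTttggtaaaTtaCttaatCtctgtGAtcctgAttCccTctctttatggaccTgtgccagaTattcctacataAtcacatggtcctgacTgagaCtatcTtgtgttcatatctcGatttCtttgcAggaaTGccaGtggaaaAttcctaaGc
Mrgprb5: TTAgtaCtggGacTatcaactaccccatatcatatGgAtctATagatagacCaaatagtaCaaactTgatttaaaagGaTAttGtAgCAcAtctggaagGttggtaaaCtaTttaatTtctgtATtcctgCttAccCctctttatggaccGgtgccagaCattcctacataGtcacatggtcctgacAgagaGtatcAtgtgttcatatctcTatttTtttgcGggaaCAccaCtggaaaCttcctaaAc

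Runx1, a transcription factor of the non-peptidergic nociceptor lineage, binds the core TGTGGT, and this motif was searched on both strands (TGTGGT or ACCACA). It was in 0 of the 5 member promoters and in 4614 of 32851 promoters of that length (14.05%), so its absence here says only that these letters are not in these windows. The window of Mrgprd, the member with the highest transcript counts, is shown for reference (chr7:145314585-145314834, plus strand).
Mrgprd: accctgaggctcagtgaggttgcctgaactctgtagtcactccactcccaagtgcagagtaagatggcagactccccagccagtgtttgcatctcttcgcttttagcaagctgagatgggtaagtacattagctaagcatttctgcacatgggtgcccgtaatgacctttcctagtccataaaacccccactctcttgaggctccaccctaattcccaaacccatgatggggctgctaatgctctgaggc

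Mrgpra3 shares sequence with relatives that are not members. Its coding sequence and that of Mrgpra4 were the same at 82.7% of aligned bases and held a common run of 76 bases, coding positions 216 to 291 of Mrgpra3, given because reads inside it cannot be told apart.
Mrgpra3 and Mrgpra4: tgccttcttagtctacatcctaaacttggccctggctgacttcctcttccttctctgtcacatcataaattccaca
Of 1246 windows of 50 bases along the Mrgpra3 transcript, 89 (7.14%) also occurred in another transcript of the family. The deposited values of Mrgpra3 were not whole counts, within 0.1, in 11 of 41 low values (26.8%), against 0 for the other 6 members. Low values of Mrgpra3 are therefore uncertain. Mrgprx1, Mrgprb4 and Mrgprb5 shared 33, 17 and 8 windows, while Mrgprd, Mrgpre and Mrgprf shared 0.

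Mrgprd was the most sharply distributed member. It was detected in 33.4% of the 371 cells (interval 28.6% to 38.5%) and in 63.7% of the 182 ungated cells (interval 56.3% to 70.7%), with 8 detecting cells outside the ungated class. It was seen in 2 of 46 Sst/Nppb cells (4.35%), 0 of 34 Th cells, which allows a share of up to 8.82%, and 1 of 81 Calca/Tac1 cells (1.23%). In Nefh cells it was detected in 5 of 20 (25%), all from Control. Split at 100 CPM, 10 cells lay between 15.9 and 79.9 CPM, and all others lay at 138 CPM or above with a median of 662 and a highest value of 1523 CPM. The widest gap in this region, on a log scale, ran from 138 to 253 CPM.

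**Figure D1:**
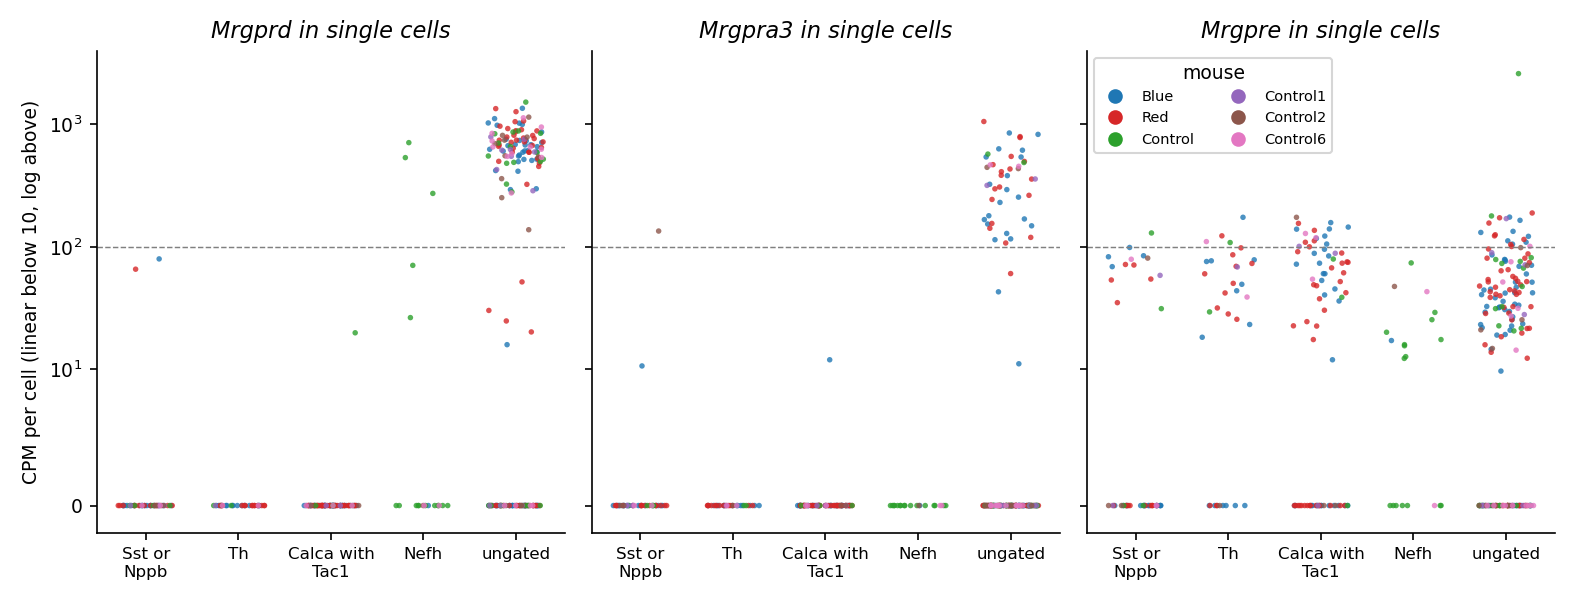
Level of Mrgprd, Mrgpra3 and Mrgpre in single cells (CPM, linear below 10 and log above) for the Sst/Nppb, Th, Calca/Tac1, Nefh and ungated classes. Each point is 1 cell, coloured by mouse. Mrgprd and Mrgpra3 points above 100 CPM lie almost all in the ungated column, while Mrgpre is scattered over every class.

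Averaged per mouse over classes with at least 3 cells, Mrgprd had 4.44 CPM in Blue, 4.39 in Red and 0 in Control, Control1 and Control2 in Sst/Nppb cells. In Th cells it was 0 in both Blue and Red. In Calca/Tac1 cells it was 6.64 CPM in Control and 0 in the other 5 mice. Ungated cells of the 6 mice had 372 CPM at the lowest (Blue), 433 at the median and 503 at the highest (Control6). Every one of these ungated means lay above every Sst/Nppb, Th and Calca/Tac1 mean.

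Genes were tested where their mean over the profiles reached 5 CPM, and Mrgprd and Mrgpra3 did so through the ungated cells in which they are high, so their adjusted p-values describe genes that passed in this way. Without the filter the calls below in Sst/Nppb, Th and Calca/Tac1 cells were also made, but that refit uses the same profiles and is no separate support. The fitted difference on the log2(CPM + 5) scale, relative to ungated cells, was -6.10 ± 0.41 (SE) in Sst/Nppb cells (limma with Benjamini-Hochberg adjustment, adjusted p = 3.19e-09, lower in 5 of 5 mice). It was -6.26 ± 0.39 in Calca/Tac1 cells (limma, adjusted p = 4.78e-10, lower in 6 of 6 mice) and -6.54 ± 0.59 in Th cells (limma, adjusted p = 5.96e-07, lower in 2 of 2 mice). Mrgprd was at 0 in Th cells of Blue and Red, so the fitted value there depends on the pseudocount. Against a floor of 3 counts over those 28 cells (3.41 CPM), Mrgprd was at least 119.7-fold lower in Th cells than in ungated cells of the same mice, at 408 CPM. That floor holds for counting error alone, over cells pooled from both mice, and not for the spread between mice.

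In Nefh cells, only Control had enough cells for a mean, and Mrgprd averaged 101.2 CPM there, against 419.7 CPM in ungated cells of Control. The 3 Nefh cells at 100 CPM or more had 274, 536 and 711 CPM. The difference from ungated cells did not pass (-2.25 ± 0.81, limma, adjusted p = 0.459), and it rests on 1 profile assumed to vary like the other classes. Without the filter on low values it did pass (limma, adjusted p = 0.0281). Satellite glia markers were highest in this class (above), and their part in the Nefh values was not tested.

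**Figure D2:**
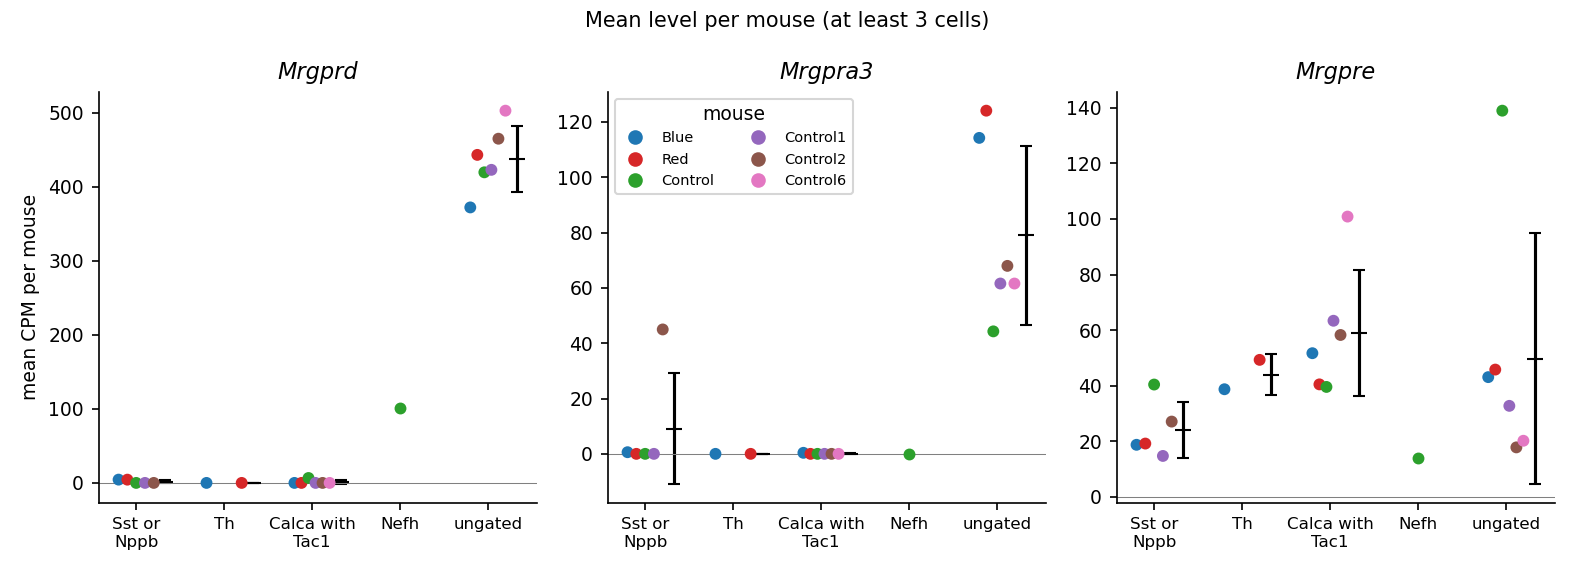
Mean level per mouse (CPM) of Mrgprd, Mrgpra3 and Mrgpre in each class, with 1 point for each mouse with at least 3 cells and a black mark with bars for the mean and SD over mice where there are 2 or more. Ungated means of Mrgprd run from 372 to 503 CPM and stand clear of the Sst/Nppb, Th and Calca/Tac1 means, while the means of Mrgpre overlap between classes, with 1 high value of 139 CPM in ungated cells of Control.

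Mrgpra3 was detected in 51 of 371 cells (13.7%, interval 10.4% to 17.7%), 48 of them ungated. Among ungated cells 48 of 182 had it (26.4%). It was found in 2 of 46 Sst/Nppb cells, 0 of 34 Th cells, 1 of 81 Calca/Tac1 cells and 0 of 20 Nefh cells. A total of 46 cells had 100 CPM or more, with a median of 359 and a highest value of 1058 CPM, and the 5 cells below that lay between 10.7 and 60.7 CPM. One Sst/Nppb cell of Control2 was among the high ones and set that mouse's mean of 44.97 CPM. The Sst/Nppb mean was 0.594 CPM in Blue and 0 in Red, Control and Control1.

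In Calca/Tac1 cells Mrgpra3 averaged 0.375 CPM in Blue and 0 in the other 5 mice. In Th cells it was 0 in both mice, and in Nefh cells of Control it was 0. Ungated means were 44.3 CPM at the lowest (Control), 64.8 at the median and 124.1 at the highest (Red), and they stood above all means of Th, Calca/Tac1 and Nefh cells, while the Control2 mean of Sst/Nppb cells lay just above the lowest ungated mean. Relative to ungated cells the log2(CPM + 5) difference was -3.31 ± 0.52 in Sst/Nppb cells (limma, adjusted p = 0.000114, lower in 5 of 5 mice) and -3.97 ± 0.48 in Calca/Tac1 cells (limma, adjusted p = 6.37e-06, lower in 6 of 6 mice). In Th cells it was -4.02 ± 0.74 (limma, adjusted p = 0.00205, lower in 2 of 2 mice). Against the floor of 3 counts, again for counting error alone, Mrgpra3 was at least 34.97-fold lower there than in ungated cells of the same mice. The Th call was lost without Blue (limma, adjusted p = 0.230) and without Red (0.248). Under DESeq2 none of these 3 calls passed, with adjusted p = 0.167 in Sst/Nppb, 0.221 in Th and 0.0558 in Calca/Tac1 cells. The Nefh difference did not pass (-3.53 ± 1.00, limma, adjusted p = 0.193).

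Within ungated cells Mrgpra3 differed between runs. Its mean was 114.2 CPM in Blue and 124.1 in Red, both of run 1, and between 44.3 and 67.95 CPM in the 4 mice of runs 2 to 4. The share of ungated cells with Mrgpra3 was 35.6% in Blue and 31.7% in Red, and 8.33% to 18.2% in the 4 other mice, so the runs did not overlap. Only 2 such cells came from each of these 4 mice. Run and mouse cannot be told apart here. Among ungated cells Mrgprd showed no such split in its mean, since the Blue mean was the lowest and the Red mean (443 CPM) lay within the range of the 4 mice of runs 2 to 4 (419.7 to 503 CPM). Over all kept cells it did split: Mrgprd was in 26.98% of cells of Blue and 31.3% of Red, against 42% to 44% in the 4 other mice, with means of 175 and 208 CPM against 234 to 302 CPM.

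The test behind these calls covered 10704 genes whose average reached 5 CPM, and it let through 3 of the 7 members, Mrgprd, Mrgpra3 and Mrgpre. Their number is not a result. Of all genes tested, 8.52% were called lower and 3.15% higher in Sst/Nppb cells than in ungated cells. The shares were 2.34% lower and 1.22% higher in Th cells, 5.98% lower and 4.83% higher in Calca/Tac1 cells, and 0.149% lower and 0.187% higher in Nefh cells.

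Mrgprx1 was found mainly in cells with Mrgpra3. It was detected in 14 of 371 cells (3.77%, interval 2.08% to 6.25%), at no more than 2 counts in a cell and at 8.49 to 78.4 CPM. Mrgprx1 was in 12 of 51 cells with Mrgpra3 (23.5%, interval 12.8% to 37.5%), from 4 mice, and in 2 of 320 cells without it (0.625%, interval 0.0758% to 2.24%). Median counts were 38554 in cells with Mrgpra3 and 28756 in cells without. After every cell was thinned to 10000 counts, leaving 341 cells, Mrgprx1 was in 4 of 42 cells with Mrgpra3 and 0 of 299 without. One of the 2 exceptions was an ungated cell of Red with Calca at 15861 CPM, and the other was a Nefh cell of Control.

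Mrgprb4 was the rarest member. It was detected in 3 of 371 cells (0.809%), all ungated cells of Red, with 1 or 2 counts each. All 3 cells also had Mrgpra3, at 156, 309 and 470 CPM, and Mrgprb4 was in 0 of 320 cells without Mrgpra3, which allows a share of up to 0.938%. The same 3 cells had Mrgpre, and 2 had Mrgprx1.

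Most of the few cells with Mrgprb5 or Mrgprf also had Mrgprd, but the share with Mrgprb5 was similar in cells with Mrgpra3. Mrgprb5 was detected in 9 cells (2.43%, interval 1.12% to 4.55%) at 1 or 2 counts. It was in 7 of the cells with Mrgprd (5.65%, interval 2.30% to 11.3%), from 5 mice, and in 2 of 247 cells without (0.810%, interval 0.0982% to 2.89%). Among the 51 cells with Mrgpra3 it was in 2 (3.92%, interval 0.478% to 13.5%), an interval that holds the share in cells with Mrgprd. Those numbers are small. After thinning Mrgprb5 was left in 1 cell with Mrgprd and 2 of 228 without, too few to show a difference either way. One of the 7 cells held Mrgprd at 20.3 CPM beside Mrgpra3 at 385 CPM, and the remaining 6 had Mrgprd between 138 and 759 CPM.

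Mrgprf, whose gene lies next to Mrgprd, was detected in 7 cells (1.89%, interval 0.762% to 3.85%), again at 1 or 2 counts. It was in 6 of the cells with Mrgprd (4.84%, interval 1.796% to 10.2%), from 4 mice, and in 1 of 247 without (0.405%, interval 0.0102% to 2.23%). After thinning it was in 2 cells with Mrgprd (1.77%) and in 0 of 228 without. The 6 cells had Mrgprd at 521 to 1148 CPM. Mrgprf was in 0 of 51 cells with Mrgpra3, which allows a share of up to 5.88%. Median counts were 46054 in cells with Mrgprd and 23585 in cells without, and the part of depth in these shares was not tested beyond the thinned values.

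**Figure D3:**
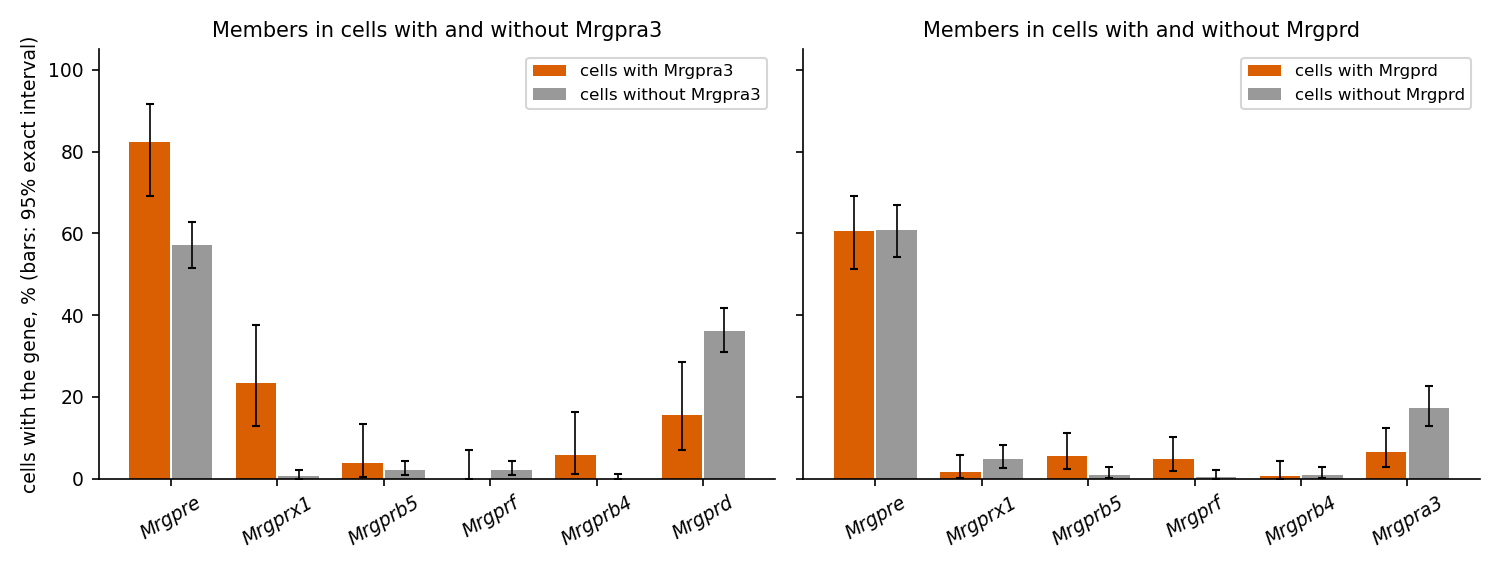
Percent of cells in which other members were detected, in cells with and without Mrgpra3 (one panel) and with and without Mrgprd (other panel), with exact 95% intervals. Mrgprx1 stands at 23.5% in cells with Mrgpra3 against 0.625% without, and Mrgprd at 15.7% against 36.3%.

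Mrgpre differed from the rest in being spread over all classes. It was detected in 225 of 371 cells (60.6%, interval 55.5% to 65.7%), but only 42 cells reached 100 CPM and the most counts in a cell were 11. The share of cells with it was 30.4% in Sst/Nppb, 70.6% in Th, 60.5% in Calca/Tac1, 60% in Nefh and 64.8% in ungated cells. At 10000 counts per cell the shares were 25%, 35.3%, 36.4%, 11.1% and 26.1% in the same order of classes, with wide intervals (12.7% to 41.2% in Sst/Nppb, 25.7% to 48.1% in Calca/Tac1 cells). Among ungated cells the share at any count was 76.3% in Blue and 75% in Red, against 36.4% to 54.2% in the mice of runs 2 to 4. The class shares pool these mice, and run and mouse cannot be told apart. All 8 cells that passed more than 1 gate had Mrgpre and no other member.

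Mean levels per mouse were 18.7, 19.1, 40.4, 14.7 and 27.04 CPM in Sst/Nppb cells of Blue, Red, Control, Control1 and Control2, 38.7 and 49.3 CPM in Th cells of Blue and Red, and 13.9 CPM in Nefh cells of Control. Calca/Tac1 cells had 39.5 CPM at the lowest, 54.9 at the median and 100.9 at the highest, and ungated cells 17.7, 37.9 and 139. The classes overlapped. The ungated mean of Control rested on 1 shallow cell with 1153 counts, 3 of them Mrgpre (2603 CPM), and was 31.9 CPM without it; the next highest cell had 189 CPM. None of the class differences passed. The log2(CPM + 5) difference from ungated cells was -0.68 (95% interval -1.59 to 0.23, limma, adjusted p = 0.365) in Sst/Nppb, 0.24 (-1.05 to 1.54, adjusted p = 1.00) in Th, 0.47 (-0.38 to 1.31, adjusted p = 0.566) in Calca/Tac1 and -1.88 (-3.64 to -0.12, adjusted p = 0.697) in Nefh cells. These intervals do not show that the levels were alike, and the Sst/Nppb difference passed when only Blue and Red were used (-1.05, limma, adjusted p = 0.0188).

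Mrgprd and Mrgpra3 were mostly in different cells. At any count Mrgprd was in 8 of 51 cells with Mrgpra3 (15.7%, interval 7.02% to 28.6%) and 36.3% of the 320 cells without (interval 30.98% to 41.8%). At 100 CPM or more it was in 2 of 46 Mrgpra3 cells (4.35%, interval 0.531% to 14.8%) and 34.5% of the 325 other cells (interval 29.3% to 39.9%), and thinned it was in 3 of 42 and in 36.8% of 299. The cells at 100 CPM or more in both were 1 from Blue, with Mrgprd at 299 and Mrgpra3 at 543 CPM, and 1 from Red, with 594 and 412 CPM. The 8 cells with both at any count were 3 from Blue and 5 from Red. At any count Mrgpra3 was in 8.82% of cells with Mrgprd and 21.7% of cells without in Blue. In Red these shares were 12.5% and 15.9%, a small difference.

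**Figure D4:**
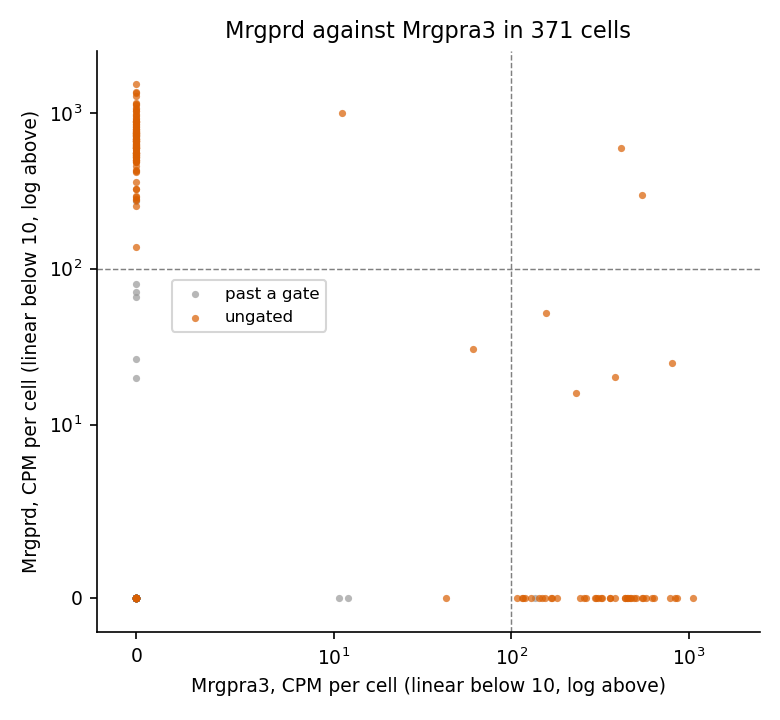
Mrgprd against Mrgpra3 in each of the 371 cells (CPM, both axes linear below 10 and log above), with cells marked as ungated or gated and lines at 100 CPM. Points follow the axes, and 2 cells lie at 100 CPM or more for both genes.

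Counting all 7 members, 89 cells had none, 159 had 1, 100 had 2, 19 had 3, 3 had 4 and 1 had 5. That last cell, an ungated cell of Red with 38554 counts, held Mrgpra3 at 156 CPM and Mrgprd, Mrgprb4, Mrgprx1 and Mrgpre at 51.9 CPM each. With Mrgpre set aside, 139 cells had 1 member, 28 had 2, 3 had 3 and 1 had 4. Then 42 of 46 Sst/Nppb cells, 34 of 34 Th cells, 79 of 81 Calca/Tac1 cells and 13 of 20 Nefh cells had none, against 24 of 182 ungated cells (13.2%).

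Ungated cells were then split at 100 CPM into 43 Mrgpra3-positive cells (18, 17, 2, 2, 2 and 2 in Blue, Red, Control, Control1, Control2 and Control6) and 109 Mrgprd-positive cells (31, 34, 15, 8, 10 and 11), with 2 cells positive for both and 28 for neither. Detection of the other members was counted in both groups, with no test between them. Mrgprx1 was in 10 of 43 Mrgpra3-positive cells (23.3%, interval 11.8% to 38.6%) and 0 of 109 Mrgprd-positive cells, which allows a share of up to 2.75%. Mrgprb4 was in 3 of 43 and 0 of 109. Mrgprf was in 0 of 43, which allows up to 6.98%, and 6 of 109 (5.50%). Mrgprb5 was in 2 of 43 (4.65%) and 5 of 109 (4.59%), much the same share. Median counts were 40183 in Mrgpra3-positive and 45959 in Mrgprd-positive cells.

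Mrgpre was in 38 of 43 Mrgpra3-positive cells (88.4%, interval 74.9% to 96.1%) and 66 of 109 Mrgprd-positive cells (60.6%, interval 50.7% to 69.8%). These shares pool mice that differed. Over all kept cells of Blue, Mrgpre was in 78.3% of cells with any Mrgpra3 and 79.4% of cells with any Mrgprd. In Red these shares were 94.7% and 60%. Among cells with Mrgprd, Mrgpre was in 66.7% in Control and in 30% to 37.5% in Control1, Control2 and Control6. Blue and Red, the mice with enough cells of both kinds, had means of 70.1 and 80.7 CPM in Mrgpra3-positive cells, against 34.4 and 21.9 CPM in Mrgprd-positive cells. Both mice thus had more Mrgpre in the Mrgpra3-positive cells, with a log2(CPM + 5) difference of 1.30 ± 0.21 (limma, adjusted p = 4.25e-05, higher in 2 of 2 mice). In this comparison 12.1% of 9955 genes tested were called higher and 11.7% lower, so many genes were called, and Mrgpre was the only member tested. The call was lost in cells thinned to 10000 counts (0.93, limma, adjusted p = 0.237). Over all 371 cells, Mrgpre at 100 CPM or more was found in 12 of 46 Mrgpra3 cells (26.1%) and 30 of 325 others (9.23%), and in 3.51% of Mrgprd cells and 14.8% of the 257 others. At any count in thinned cells Mrgpre was in 13 of 42 cells with Mrgpra3 and 85 of 299 without (28.4%), which lay within each other's intervals.

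The 28 ungated cells positive for neither receptor were shallower, with a median of 20616 counts. Scn10a was detected in 23 of them, Calca in 10 and Mrgpre in 13 (46.4%). Mrgprd was above 0 in 1 and Mrgpra3 in 2 of them.

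Other genes of the receptor pathway were counted from lists of signalling partners, in the same cells of Blue and Red. Over all 9955 genes tested, 12.1% were called higher and 11.7% lower in Mrgpra3-positive cells, and the median log2 difference was -0.01. A listed gene near 0 in 1 group could reach the filter through the other group alone. The list counts below therefore describe only the genes that were tested. Of 9 tested Gq and phospholipase C genes, 0 were higher and 2 lower in Mrgpra3-positive cells (median -0.11). The lower ones were Gnaq, the alpha subunit of Gq, at 709 and 748 CPM in Mrgpra3-positive cells against 1285 and 1279 CPM in Mrgprd-positive cells, and Prkca, a protein kinase C, at 620 and 688 against 997 and 1060 CPM. Of 5 Gi and Go genes 2 were higher (median 0.12): Gnai1 (0.91 ± 0.21, limma, adjusted p = 0.00167) and Gnao1 (0.18 ± 0.04, limma, adjusted p = 0.00158).

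Beta and gamma subunits went both ways, with 2 of 10 higher and 4 lower (median -0.14). Gng4 averaged 42.9 and 26.2 CPM in Mrgpra3-positive cells against 0.515 and 0 CPM in Mrgprd-positive cells, whereas Gnb4 averaged 59 and 32.5 against 363 and 327 CPM. Gng2 was lower as well, by a log2 difference of -1.03 ± 0.07. For these 3 genes the means of the 2 mice did not overlap between the groups.

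Of 12 channel genes 2 were higher and 6 lower (median -0.28). Trpv1, the capsaicin receptor, averaged 163 CPM over both mice in Mrgpra3-positive cells and 20.6 CPM in Mrgprd-positive cells (2.68 ± 0.23, limma, adjusted p = 4.46e-09). Trpa1, an irritant-gated channel that acts downstream of Mrgpra3 in mouse, was lower, at 30.8 and 27.1 CPM against 137 and 142 CPM. The mechanosensitive channel Piezo2 was at 129 and 123.5 CPM in Mrgpra3-positive cells against 668 and 694 CPM in Mrgprd-positive cells.

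Among 13 genes of receptor desensitisation 3 were higher and 6 lower (median -0.36). Rgs2, which speeds the turn-off of Gq, was at 71.1 and 69.3 CPM in Mrgpra3-positive cells against 0.934 and 0.782 CPM in Mrgprd-positive cells. Rgs10 (276 and 290 against 881 and 882 CPM) and Rgs7 (79 and 47.7 against 221.7 and 222.5 CPM) were lower. Of 15 listed receptors of other itch mediators, 5 reached the filter, and all 5 were called, 4 higher and 1 lower (median 1.29). A receptor near 0 in 1 group reached the filter through the other group alone, so this count is not a result. Hrh1, the histamine receptor, was at 87 and 80.95 CPM against 0.527 and 0.570 CPM, and Osmr, the receptor chain for oncostatin M and interleukin 31, was at 93.97 and 99.8 against 2.00 and 5.94 CPM. Lpar3, a lysophosphatidic acid receptor, was at 0 in both mice in Mrgpra3-positive cells, against 570 and 582 CPM in Mrgprd-positive cells.

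Lineage regulators split evenly, with 4 of 10 higher and 4 lower (median 0.03). Runx1 was lower in Mrgpra3-positive cells, at 90.3 and 79.3 CPM against 550 and 584 CPM. The receptor chain Gfra2 was nearly absent there, at 2.84 and 2.15 CPM against 692 and 662 CPM, whereas Gfra1 was at 509 and 472 CPM against 49.8 and 42.7 CPM.

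**Figure D5:**
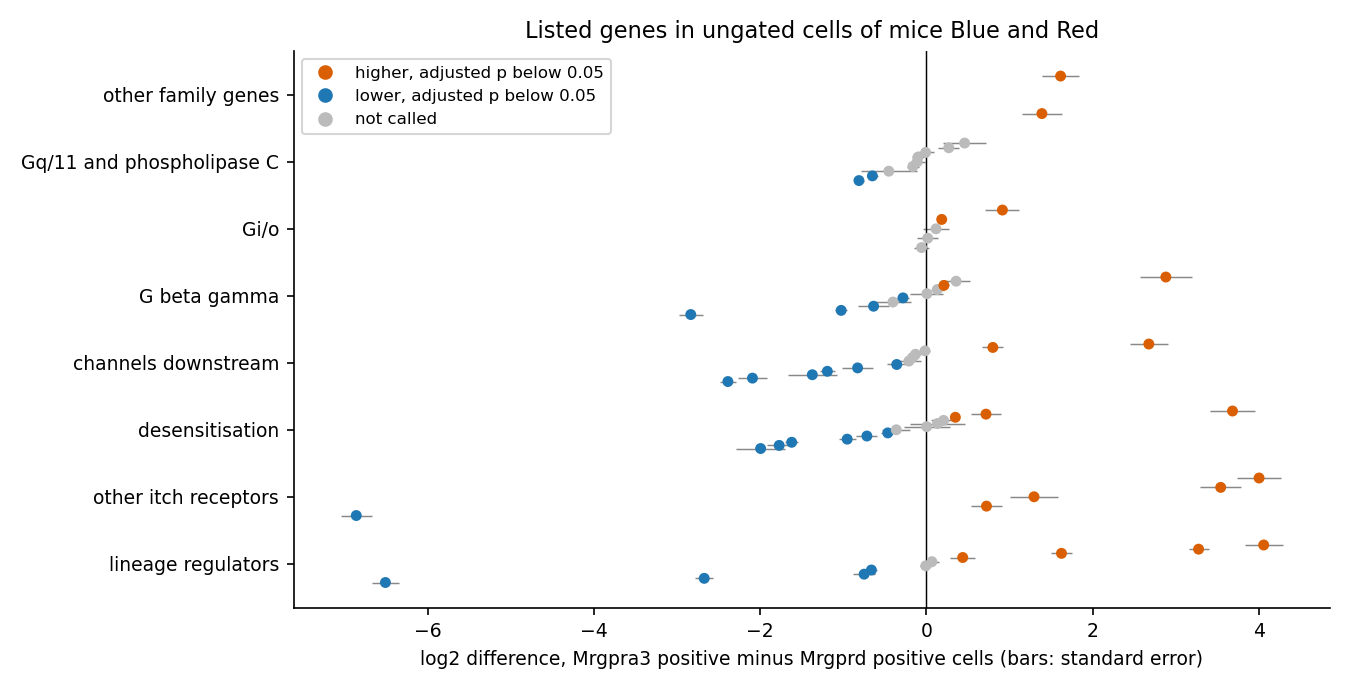
Log2 difference, Mrgpra3-positive minus Mrgprd-positive ungated cells of Blue and Red, with its standard error, for every tested gene of each list, coloured by call. Gfra2 (-6.51) and Lpar3 lie furthest to the left, and Hrh1 (4.00) and Rgs2 (3.68) are among those on the right.

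A further pair of family genes passed the filter in that comparison, Mrgpra2b at 61 and 49.4 CPM against 17.5 and 12.0 CPM and Mrgpra2a at 49.9 and 39.1 against 15.6 and 12.2 CPM, both called higher. Their values are uncertain, because 61.5% and 62.7% of their low values were not whole counts. Mrgpra4, which shares the run printed above with Mrgpra3, was in 14 of 43 Mrgpra3-positive cells and 6 of 109 Mrgprd-positive cells, and is uncertain because of that run. Mrgprb2, Mrgprb3, Mrgprb8, Mrgprg and Mrgprh were in 0 of 371 cells, which allows a share of up to 0.809%.

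Markers of other cells were read beside these differences. The satellite glia list averaged 424 CPM (0 to 2888) in Mrgpra3-positive and 216 CPM (0 to 2798) in Mrgprd-positive cells of Blue and Red. Its median was 0 in both groups, with a sum of 0 in 23 of 35 and 38 of 65 cells. Of its 3 tested genes 2 were higher, Apoe and Fabp7, and Sparc was not called. The mural list averaged 409 CPM (0 to 1403) and 30.8 CPM (0 to 110), with Tagln at 0 in both groups. Its sum was carried by Rgs5, at 407 CPM in Mrgpra3-positive and 0.795 CPM in Mrgprd-positive cells, while Pdgfrb went the other way, at 0.596 and 28.9 CPM. The fibroblast list averaged 26.7 and 6.67 CPM, and endothelial markers were at 0 in both. The part of these in the differences was not tested. With cells limited to 1000 CPM of satellite glia markers, the Mrgpre difference was 1.19 and 2339 genes were called, against 2372.

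The same lists were then counted in the gated classes, each against ungated cells. In Th cells 5 of 10 Gq and phospholipase C genes were lower and 0 higher (median -1.05, against -0.10 over all genes tested). Prkca was at 13.3 and 19.9 CPM in Th cells of Blue and Red, against 706 to 1030 CPM in ungated cells of 6 mice, and Plcb3, a phospholipase C, was at 1.31 and 4.31 against 182 to 486 CPM. In Calca/Tac1 cells 5 of the 10 were lower and 0 higher (median -0.70, against -0.08), among them Gnaq at 316 to 594 CPM against 818 to 1252 CPM. In Sst/Nppb cells 1 was lower, Gnaq (-0.47 ± 0.14, limma, adjusted p = 0.0287), and 0 higher (median -0.13, against -0.20). In Nefh cells 1 was lower, Prkcd (-2.09 ± 0.31, limma, adjusted p = 0.00308). All calls in Nefh cells rest on the 1 profile of Control, whose spread is taken from the other classes.

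The desensitisation list had 0 higher in all 4 gated classes, with 6 of 13 lower in Sst/Nppb, 2 in Th, 5 in Calca/Tac1 and 0 in Nefh cells. Over all genes tested, 3.15% were called higher and 8.52% lower in Sst/Nppb cells. The shares were 1.22% and 2.34% in Th cells, and 4.83% and 5.98% in Calca/Tac1 cells. A count of 0 higher among 13 genes is thus near the share over all genes. Rgs4 was at 412 to 714 CPM in Sst/Nppb cells and 69.5 to 379 CPM in Calca/Tac1 cells, against 2028 to 3066 CPM in ungated cells. Of 13 channel genes, 2 were higher and 5 lower in Sst/Nppb, 0 and 5 in Th, 2 and 6 in Calca/Tac1, and 0 and 0 in Nefh cells. Piezo2 was at 18.5 to 109 CPM in Sst/Nppb cells against 496 to 943 CPM in ungated cells. Gi and Go genes were called lower once each in Th, Calca/Tac1 and Nefh cells, each time Gnao1, and 0 of 5 were called in Sst/Nppb cells. Beta and gamma subunits counted 1 higher and 2 lower of 11 in Sst/Nppb, 0 and 3 in Th and in Calca/Tac1, and 0 and 0 in Nefh cells.

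Other itch receptors went the opposite way to Mrgprd and Mrgpra3 in Sst/Nppb cells, where 7 of 10 were higher and 1 lower (median 2.94, against -0.20). Osmr was at 586 to 892 CPM there, against 0 to 84.3 CPM in ungated cells, and the serotonin receptor Htr1f was at 202 to 304 CPM against 0 to 81.2 CPM. Of the 7 higher genes, Osmr, Htr1f, Il31ra and Cysltr2 are also on the list of markers of that class, so the count largely restates it. Lpar3 was the lower one, at 0 in all 5 mice against 303 to 459 CPM. The list counted 0 higher and 1 lower in Th, 2 and 2 in Calca/Tac1, and 1 and 0 in Nefh cells. In Calca/Tac1 cells the sphingosine receptor S1pr3 was at 290 to 396 CPM against 9.47 to 58.8 CPM. Lineage regulators counted 0 higher and 4 lower of 10 in Sst/Nppb, 0 and 1 in Th, 2 and 3 in Calca/Tac1, and 0 and 1 in Nefh cells. The 3 tested family genes that are not members gave 0 calls in any of the 4 classes.

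The genes whose level over the 371 cells was most like that of each widely detected member were taken by Spearman correlation over 11739 genes. These are descriptions over cells that share mice, runs and depth. For Mrgprd they were Agtr1a (0.88), Prkcq (0.87), Lpar3 (0.85), Otoa (0.81) and Ctxn3 (0.79), while the correlation of Mrgprd with counts per cell was 0.42. Agtr1a, an angiotensin receptor, averaged 13.5 CPM in Mrgpra3-positive cells and 120 CPM in Mrgprd-positive cells. For Mrgpra3 they were Gda (0.71), Adora2b (0.65), Tmprss11c (0.61), Cbln1 (0.61) and Agtr1b (0.60), against 0.15 with counts per cell. Gda, guanine deaminase, averaged 331 CPM in Mrgpra3-positive and 2.16 CPM in Mrgprd-positive cells, and the adenosine receptor Adora2b averaged 39.8 and 0.968 CPM. For Mrgpre the closest were weak: Ptprn2 (0.35), Aplp1 (0.29), Jup (0.29), Cdhr1 (0.28) and Klhdc8a (0.27), against 0.10 with counts per cell. Ptprn2, a protein of secretory granules, averaged 189 CPM in Mrgpra3-positive and 11.2 CPM in Mrgprd-positive cells, the same order as Mrgpre itself.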

How the data were processed

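Libraries were made by a digital RNA sequencing method, per the labels' protocols, and STAR 2.7.3a and mm10 are named in the submitters' processing notes. Each deposited value is a signal of a gene in a cell, read as the count of the gene times a factor of the cell that the sources used here do not give. Whole reads were recovered in 252 of 394 columns and not claimed in 142, a median of 96.5% of low values being whole within 0.1. No 2 columns were identical. The labels list 400 cells, and 6 of them were not analysed here. The 26 rows with dates for symbols (0.154% of the signal) were left out, as was Rn45s (a mean of 7.10% of a kept cell's counts), and values were scaled to CPM. The 23 cells with fewer than 500 genes held at most 383 counts and no member.

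Mean CPM per mouse and class (at least 3 cells) were fitted as log2(CPM + 5) by limma 3.58.1 under R 4.3.3, with the mouse blocked, a trended prior and all 5 classes in 1 fit. Genes had to average 5 CPM, and gate genes were left out. Fold changes of low genes are understated on this scale. Calls are at Benjamini-Hochberg adjusted p under 0.05. Profiles of different classes from the same mouse share a block. Profiles numbered 5 mice for Sst/Nppb, 2 for Th, 6 for Calca/Tac1, 1 for Nefh and 6 for ungated cells, and 2 for Mrgpra3-positive against Mrgprd-positive cells, a fit with 1 residual degree of freedom. P-values combine the spread of a gene between mice with the prior, which is drawn from the spread of other genes. In the fit with 1 residual degree of freedom they rest mostly on that prior. Classes were set on genes of the same cells. The fit was also run on simulated counts drawn without differences between mice, which cannot show how it performs on these profiles. Alternatives included edgeR 4.0.16 and DESeq2 1.42.0 on rounded counts, thinning to 10000 counts, and other gates, filters and pseudocounts. Named genes are the members, the 5 genes most alike over cells for members seen in at least 20 cells (predicted genes not named), and up to 3 called genes of smallest adjusted p per list and comparison. Trpv1, Mrgpra4 and the Mrgpr genes at 0 were added after their values were seen. Some genes the rule names are not reported here. Members and lists were chosen with earlier results of these data known.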

Additional observations from a re-analysis of the deposited data

Results flagged for a closer look

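Of 40 sets of mouse values of the members, 12 held a mouse whose gap to the nearest other mouse was large for the range of the set. For evenly spread values chance gives about 1 in 20, but most of these come from sets in which nearly all mice are at 0, for which that rate was not worked out. In Calca/Tac1 cells Mrgprd averaged 6.64 CPM in Control, from 1 of 3 cells (33.3%), and 0 in the other 5 mice. In Sst/Nppb cells Mrgpra3 averaged 44.97 CPM in Control2, from 1 of 3 cells (33.3%), and at most 0.594 CPM in the other 4 mice. In Calca/Tac1 cells Mrgpra3 averaged 0.375 CPM in Blue, from 1 of 32 cells (3.13%), and 0 in the other 5. Mrgprb4 was found in Red alone, at 1.22 CPM and in 5.00% of its ungated cells, and at 0.570 CPM and in 2.34% of all its cells. Mrgpre averaged 139 CPM in ungated cells of Control, against 17.7 to 45.8 CPM in the other mice, and 80.3 CPM over all cells of Control, against 26.2 to 41.7 CPM. A single cell of 1153 counts carried this value, and the ungated mean of Control without it was 31.9 CPM.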

How the results depend on the processing

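Of 295 refits of a member's difference, 266 kept direction and side of the threshold, 17 passed newly, 7 no longer passed and 5 turned sign. The turns all concern Mrgpre, whose differences did not pass: -0.0206 for Th cells in the fit of the 2 groups only, with at least 5 cells per mouse and in run 1 only, and -0.35 for Th and -0.70 for Calca/Tac1 cells after thinning. Mrgprd stayed lower and past the threshold in Sst/Nppb, Th and Calca/Tac1 cells (-11.2 to -4.46). Of the members' levels 3 moved beyond the spread, as did 13 of 156 shares. The lost Mrgpra3 calls are those named above plus Sst/Nppb cells in runs 2 to 4 only (limma, adjusted p = 0.121).

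Counts of called genes moved more. For Sst/Nppb cells (1249, of which 337 higher) they were 2458 with edgeR (920 higher), 1965 with DESeq2 (913 higher), 1963 with at least 5 cells, 707 thinned, 1956 in run 1, 374 in runs 2 to 4 and 661 to 1269 without 1 mouse (661 without Blue, 703 without Red). For Th cells (381) they were 2342 with edgeR, 1531 with DESeq2, 2167 in the fit of 2 groups, 1757 with at least 5 cells, 1772 in run 1 and 57 to 474 without 1 mouse (79 without Blue, 57 without Red). With satellite glia markers limited to 1000 CPM, added after seeing the data, the count was 642. For Calca/Tac1 cells (1157) they were 3237 with edgeR, 2261 with DESeq2, 666 with doubled gates, 751 thinned, 417 in runs 2 to 4 and 712 to 1194 without 1 mouse. For Nefh cells (36) they were 1404 without a filter (1330 higher, 74 lower), 1667 with edgeR, 754 with DESeq2, 66 on mean log2 values (58 higher), 1870 with at least 5 cells, 814 with cells of several gates kept, 282 with gates halved and 1.2e+02 with gates doubled, 79 with at least 2000 genes, 80 thinned, 94 with Rn45s in the total, 2 in runs 2 to 4 and 5 to 55 without 1 mouse. For Mrgpra3-positive against Mrgprd-positive cells (2372) they were 701 with DESeq2, 780 thinned and 2250 on mean log2 values (946 higher, 1304 lower). Without the replicate block the counts were 1200, 459, 1093, 74 and 2138 for these 5 comparisons. The cause of these changes was not tested.

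Not run, for want of profiles, were Th in runs 2 to 4, Nefh in the fit of 2 groups, without Control, in run 1 and under the glial limit, and the last comparison without Blue, without Red and in runs 2 to 4. A pseudocount of 1 moved the median of all genes for Sst/Nppb to -0.35 from -0.20, and mean log2 values moved that for Nefh to 0.39 from 0.09. Mrgprb4, Mrgprb5, Mrgprx1 and Mrgprf had at most 2 counts in a cell, so a lower share in a shallow class was not detectable at this depth.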
